A study of Homo sapiens with 12 samples.

Results

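The clade B serpin genes are described here in RKO, a human colon carcinoma cell line, from polyadenylated RNA sequenced in 12 libraries of 6 groups. The genes are SERPINB7, SERPINB1, SERPINB2, SERPINB5, SERPINB6, SERPINB8, SERPINB9 and SERPINB10, picked by symbol, 8 of the 26364 genes in the count files and 8 of the 13 clade B symbols found there. The groups, with 2 libraries each, were cells overexpressing the alpha form of PRDM1 (alpha), cells overexpressing its beta form (beta) and cells overexpressing GFP (GFP), then the PRDM1 knockout derivatives KO5 and KO2, made with CRISPR/Cas9, and PRDM1 wild-type cells (WT). PRDM1, also called BLIMP-1, is a DNA-binding repressor of transcription with a known role in plasma cells, and the groups set its gain and its loss against cells left with their own gene. SERPINB7 was listed because of its high level in the alpha and beta libraries, so its values in comparisons with those libraries are a description without a test. The labels do not say whether KO5 and KO2 are clones, what promoter drove the overexpressed genes, or whether libraries with the same label are separate cultures, so the p-values reflect the spread among these libraries alone, which may be technical.

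Serpins are protease inhibitors that offer a target protease an exposed reactive loop. When the protease cuts it, most serpins change shape and hold the enzyme in an inactive complex. Clade B serpins lack the classical secretion signal of blood serpins and mostly act inside cells, where several protect the cell from proteases of its own granules or of attacking lymphocytes. In humans their genes lie in a pair of clusters, SERPINB1, SERPINB6 and SERPINB9 on chromosome 6 and the other members on chromosome 18.

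The regions before the transcription starts of the members that differed most with alpha or beta are shown because the overexpressed protein is a DNA-binding factor. Each holds the 250 bases before an annotated start, from RefSeq on build GRCh38.p14, and capitals mark TGANTCA, a pattern that covers the site known for AP-1 factors. Which of the annotated starts of SERPINB7 was used cannot be read from counts per gene.
SERPINB7 first start (chr18:63752807-63753056, plus strand): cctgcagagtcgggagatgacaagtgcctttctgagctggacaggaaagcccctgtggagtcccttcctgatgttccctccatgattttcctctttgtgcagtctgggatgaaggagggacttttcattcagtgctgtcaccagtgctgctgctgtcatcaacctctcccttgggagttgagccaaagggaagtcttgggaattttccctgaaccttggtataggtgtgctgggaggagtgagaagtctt
SERPINB7 second start (chr18:63775168-63775417, plus strand): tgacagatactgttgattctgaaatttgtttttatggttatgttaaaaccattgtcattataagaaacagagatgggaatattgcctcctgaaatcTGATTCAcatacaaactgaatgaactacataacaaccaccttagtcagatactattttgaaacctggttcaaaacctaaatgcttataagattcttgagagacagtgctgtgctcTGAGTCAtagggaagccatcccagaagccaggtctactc
SERPINB7 last start (chr18:63777531-63777780, plus strand): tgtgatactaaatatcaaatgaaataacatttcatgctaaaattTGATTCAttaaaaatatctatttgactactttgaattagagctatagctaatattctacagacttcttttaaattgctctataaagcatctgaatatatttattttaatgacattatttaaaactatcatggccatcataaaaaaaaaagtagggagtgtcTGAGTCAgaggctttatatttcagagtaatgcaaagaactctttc
SERPINB2 (chr18:63887455-63887704, plus strand): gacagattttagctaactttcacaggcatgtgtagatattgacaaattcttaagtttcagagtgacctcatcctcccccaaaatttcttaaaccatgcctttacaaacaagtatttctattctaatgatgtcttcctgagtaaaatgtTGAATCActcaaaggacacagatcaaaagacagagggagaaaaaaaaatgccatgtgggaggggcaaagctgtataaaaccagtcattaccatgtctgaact
SERPINB8 (chr18:63969831-63970080, plus strand): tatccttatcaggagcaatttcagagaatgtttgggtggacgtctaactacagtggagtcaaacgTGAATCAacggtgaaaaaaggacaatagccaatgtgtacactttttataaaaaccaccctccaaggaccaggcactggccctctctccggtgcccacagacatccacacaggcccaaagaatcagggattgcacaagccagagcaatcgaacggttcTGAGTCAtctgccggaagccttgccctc
SERPINB9 (chr6:2903310-2903559, minus strand): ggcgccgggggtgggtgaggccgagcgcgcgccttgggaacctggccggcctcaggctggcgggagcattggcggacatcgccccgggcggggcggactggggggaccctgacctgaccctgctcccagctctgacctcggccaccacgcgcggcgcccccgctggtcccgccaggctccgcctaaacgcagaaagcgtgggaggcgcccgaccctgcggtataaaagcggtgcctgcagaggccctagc
SERPINB1 (chr6:2841864-2842113, minus strand): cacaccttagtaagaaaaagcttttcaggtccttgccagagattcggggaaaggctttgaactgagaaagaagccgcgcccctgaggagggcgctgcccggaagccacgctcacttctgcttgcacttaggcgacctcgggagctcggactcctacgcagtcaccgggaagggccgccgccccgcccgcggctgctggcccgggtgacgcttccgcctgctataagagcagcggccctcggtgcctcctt

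The promoter table held 12 windows for 7 of the 8 members, some of which overlap, and TGANTCA occurred on either strand in 5 of them, against 6.57% of the 35116 windows of all genes. It began 154 and 39 bases before the second start of SERPINB7, 206 and 45 bases before its last start, 185 and 28 bases before the start of SERPINB8, 102 before that of SERPINB2 and 146 before that of SERPINB5. The exact letters TGAGTCA, found in 4.20% of all windows on either strand, stood in 3 member windows, those of the second and last starts of SERPINB7 and of SERPINB8. GAAAG, the core of the site known for PRDM1, was in 8 of the 12 windows and in 48.9% of all windows. The longer GTGAAAG, which contains GAAAG, was in 3.28% of all windows and, among the members, in that of SERPINB2, starting 234 bases before the start. TATAAA stood in 4 member windows, those of SERPINB2, SERPINB8, SERPINB9 and the last start of SERPINB7, and in 10.7% of all windows. These matches describe letters in the windows and not bound sites, and the patterns were chosen with the sequences in view.

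The libraries held between 19058967 and 55961821 counts in genes. Levels are given as CPM, counts scaled to a common library total after TMM normalization, and with 3 counts as the limit a gene at 0 could lie at up to 0.157 CPM in the library of lowest depth. PRDM1 itself held 11475 and 9681 counts in the alpha libraries and 22395 and 28423 in the beta libraries, against 2 and 6 in the GFP libraries. The KO5 libraries held 1 and 1 PRDM1 counts and the KO2 libraries 0 and 1, against 4 and 4 in WT, too few to check the knockouts. Of the colon epithelial markers, KRT8, KRT18 and CDX2 were present, at 490 to 809, 296 to 381 and 13.0 to 17.4 CPM over the libraries. EPCAM, CDX1 and CDH17 were at 0, and CDH1, KRT19, KRT20, VIL1 and LGALS4 had at most 7 counts in any library. Of 7 leukocyte markers, CD3E, MS4A1 and CSF1R had 0 counts in every library, PTPRC at most 1 and ITGAM at most 6, while CD79A had 2 to 18. The leukocyte markers summed to 0.542 to 0.806 CPM with alpha and 0.419 to 0.577 CPM with beta, against 0.325 to 0.389 CPM with GFP. Their sums were 0.352 to 0.472 CPM in KO5, 0.114 to 0.253 in KO2 and 0.245 to 0.265 in WT. The fibroblast markers summed to 12.1 to 12.9 CPM with alpha and 9.90 to 10.9 CPM with beta, against 9.33 to 9.70 CPM with GFP. Their sums were 12.7 CPM in KO5, 8.52 to 9.10 in KO2 and 10.2 to 12.1 in WT. Of the fibroblast markers, COL1A1 and PDGFRB were present, at 5.12 to 9.96 and 2.25 to 6.54 CPM over the libraries. DCN was at 0 in every library, COL1A2 and COL3A1 had at most 2 counts and LUM at most 12. The endothelial markers summed to 0.0986 to 0.127 CPM with alpha and 0.0825 to 0.105 CPM with beta, against 0 to 0.0389 CPM with GFP, with PECAM1 and CDH5 at 0. Their sums were 0.0674 to 0.0704 CPM in KO5, 0.0286 to 0.0461 in KO2 and 0 to 0.0353 in WT. The colon epithelial markers summed to 815 to 823 CPM with alpha and 927 to 928 CPM with beta, against 892 to 924 CPM with GFP. Their sums were 1133 to 1203 CPM in KO5, 1019 to 1047 in KO2 and 970 to 987 in WT. The part of these marker differences between groups in the serpin differences was not tested. Of 8 markers of stratified epithelium, a tissue rich in clade B serpins, KRT10 alone passed 1 CPM, at 13.9 to 17.4 CPM, and KRT14, TP63 and SPRR1B were at 0.

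Clade B serpins formed 3 classes in RKO cells. SERPINB9, SERPINB6, SERPINB1 and SERPINB8 were expressed in every library, SERPINB7 and SERPINB2 were at or near 0 except in the alpha and beta libraries, and SERPINB5 and SERPINB10 were not detected beyond 1 count. Of the 8 members, 6 passed the filter on low counts, and SERPINB7 and SERPINB2 passed it only through the alpha and beta libraries, so that they had to differ there. In bulk libraries such as these, fewer cells expressing a gene and less RNA per cell cannot be told apart. The 5 clade B serpins outside the list, SERPINB3, SERPINB4, SERPINB11, SERPINB12 and SERPINB13, had 0 counts in all 12 libraries.

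**Figure D1:**
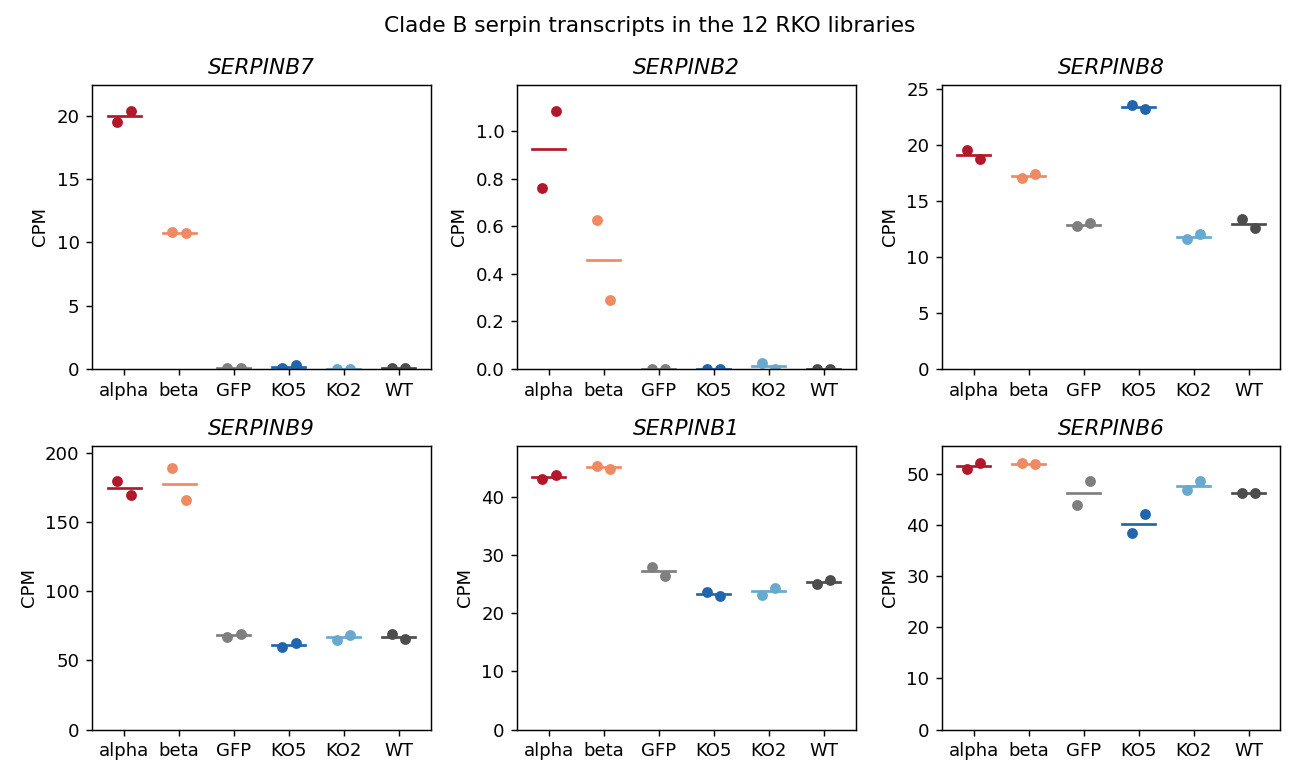
Level of 6 clade B serpins, in CPM on linear axes from 0, in each library (points) with the mean of the group (bars). SERPINB7 stands at 10.7 CPM or more and SERPINB2 at 0.289 CPM or more in all alpha and beta libraries, and SERPINB8 is highest in KO5, at 23.6 and 23.3 CPM.

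SERPINB7, also called megsin, is known from kidney mesangial cells and the upper epidermis, where its loss causes a hereditary thickening of the palms and soles. It had 461 and 413 counts in the alpha libraries and 207 and 260 in the beta libraries, against 2 and 3 in the GFP libraries. The KO5 libraries held 1 and 8 counts and the KO2 libraries 1 and 1, against 3 and 3 in WT. Every alpha library was above every beta library, and these 4 stood far above the other 8.

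In CPM, SERPINB7 stood at 19.6 and 20.4 with alpha and at 10.8 and 10.7 with beta, against 0.0779 and 0.108 with GFP. It averaged 0.158 ± 0.175 CPM in KO5 and 0.0258 ± 0.00393 CPM in KO2, against 0.0672 ± 0.0203 CPM in WT (SD, n = 2 each). The order was alpha, beta, KO5, GFP, WT and KO2, and the KO5 libraries spanned the values of the GFP and WT libraries. The ratio of pooled counts was 213 for alpha over GFP (95% exact interval 90.8 to 656) and 115 for beta over GFP (95% exact interval 48.9 to 356). Intervals of count ratios cover counting error only, and these rest on 5 counts in the GFP group. Alpha exceeded beta by a ratio of 1.85 (95% exact interval 1.65 to 2.07), or 0.89 ± 0.10 on the log2 scale, whereas PRDM1 counts were lower with alpha by a ratio of 0.411. The part of the PRDM1 level in this difference was not tested.

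SERPINB2, plasminogen activator inhibitor 2, inhibits urokinase and is known as an inducible gene of monocytes and keratinocytes. It had 18 and 22 counts in the alpha libraries and 12 and 7 in the beta libraries, against 0 and 0 in the GFP libraries. All KO5 and WT libraries were at 0 and the KO2 libraries held 1 and 0. Taking 3 counts over the GFP group as the limit, SERPINB2 was at least 16.2-fold higher with alpha and at least 7.79-fold higher with beta than with GFP, a description without a test, since the gene entered the fit only through the alpha and beta libraries. Its level stayed low, at 0.924 ± 0.227 CPM with alpha and 0.459 ± 0.240 CPM with beta (SD, n = 2 each). Between the forms the log2 difference of 1.05 ± 0.44, alpha over beta, did not pass (edgeR quasi-likelihood test, adjusted p = 0.152), and its 95% interval ran from 0.18 to 1.92. Every alpha library was above every beta library, with 18 counts the lowest of alpha and 12 the highest of beta. SERPINB2 and SERPINB10 overlap on the same strand in the annotation, and SERPINB10 had 0 counts in every library.

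SERPINB9 is the inhibitor of granzyme B, the killing protease of cytotoxic lymphocytes. It was the most abundant clade B serpin per length in every group and rose with both forms of PRDM1. Its level was 180 and 170 CPM in the alpha libraries and 189 and 166 CPM in the beta libraries, against 67.1 and 69.1 CPM in the GFP libraries. The alpha and beta libraries interleaved, and both groups stood clear of all other libraries, of which the highest was GFP. The log2 rise was 1.36 ± 0.05 with alpha (adjusted p = 3.49e-18) and 1.38 ± 0.05 with beta (adjusted p = 2.89e-18) in edgeR's quasi-likelihood test with Benjamini-Hochberg adjustment over 12858 genes, which also gave the adjusted p-values below. Of all tested genes, 2.05% had a larger absolute log2 change with alpha and 2.12% with beta. Alpha and beta differed by -0.02 ± 0.05 (adjusted p = 0.890), with a 95% interval from -0.11 to 0.07.

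SERPINB1, the inhibitor of neutrophil elastase, cathepsin G and proteinase 3, rose less. It stood at 43.1 and 43.8 CPM in the alpha libraries and 45.4 and 44.8 CPM in the beta libraries, against 28.0 and 26.5 CPM in the GFP libraries. The rise was 0.67 ± 0.06 with alpha (adjusted p = 6.28e-14) and 0.73 ± 0.06 with beta (adjusted p = 4.24e-15). No alpha or beta library overlapped a GFP library, and alpha differed from beta by -0.05 ± 0.06 (95% interval -0.17 to 0.06).

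SERPINB8, an inhibitor of furin in biochemical assays, rose with both forms as well. Its level was 19.6 and 18.7 CPM in the alpha libraries and 17.1 and 17.4 CPM in the beta libraries, against 12.7 and 13.0 CPM in the GFP libraries. The rise was 0.57 ± 0.08 with alpha (adjusted p = 6.00e-08) and 0.42 ± 0.09 with beta (adjusted p = 2.96e-05). The alpha libraries lay above the beta libraries, but the difference of 0.15 ± 0.08 did not pass (adjusted p = 0.295, 95% interval -0.01 to 0.31). SERPINB8 overlaps HMSD, a serpin domain gene, on the same strand in the annotation, and HMSD fell by 1.31 on the log2 scale with alpha (adjusted p = 5.26e-05) and fell by 1.54 with beta (adjusted p = 7.31e-06). How reads shared by both genes were counted is not stated.

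SERPINB6, an inhibitor of cathepsin G and of trypsin-like proteases, moved least. Its level was 50.9 and 52.1 CPM in the alpha libraries and 52.1 and 51.8 CPM in the beta libraries, against 43.8 and 48.5 CPM in the GFP libraries. The rise was 0.16 ± 0.05 with alpha (adjusted p = 0.0168) and 0.17 ± 0.05 with beta (adjusted p = 0.00845), and 43.8% and 44.1% of all tested genes had a larger absolute change. Without GFP replicate 1, the lower of the GFP libraries, neither passed, with 0.09 for alpha (adjusted p = 0.295) and 0.10 for beta (adjusted p = 0.207), and neither passed in the DESeq2 Wald test (adjusted p = 0.0830 and 0.0541). The call with alpha was also lost without alpha replicate 2 (adjusted p = 0.102), and that with beta without beta replicate 2 (adjusted p = 0.0505).

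SERPINB5, or maspin, a serpin of epithelia that does not inhibit proteases, had 1 count in a KO5 library and 0 in the other 11. SERPINB10, known from blood-forming cells, had 0 in all 12. At these depths a level of up to 0.0684 CPM with alpha and 0.0692 CPM with beta is allowed for a gene with 0 counts in both libraries of the group.

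All 4 members expressed in every library, SERPINB9, SERPINB1, SERPINB8 and SERPINB6, rose with alpha and with beta. SERPINB7 and SERPINB2 are not counted, and SERPINB5 and SERPINB10 could not be tested. Among all tested genes, 37.5% passed with alpha (21.2% rose and 16.3% fell) and 40.9% with beta (22.9% rose and 18.0% fell). The median log2 change of the 4 members expressed in every library was 0.62 with alpha and 0.57 with beta, against 0.01 over all genes in each. Both comparisons share the GFP libraries. Set against WT in place of GFP, a choice made after seeing the data, the same 4 members passed, and the SERPINB9 rise was 1.38 ± 0.05 with alpha and 1.40 ± 0.05 with beta. Between the forms, where SERPINB2 was counted too, 0 of 5 members passed in edgeR's test and 0 in DESeq2. Of these, 1 had an unadjusted p under 0.05 in edgeR's test. Among all genes, 6.24% passed between the forms (3.45% higher and 2.79% lower with alpha).

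**Figure D2:**
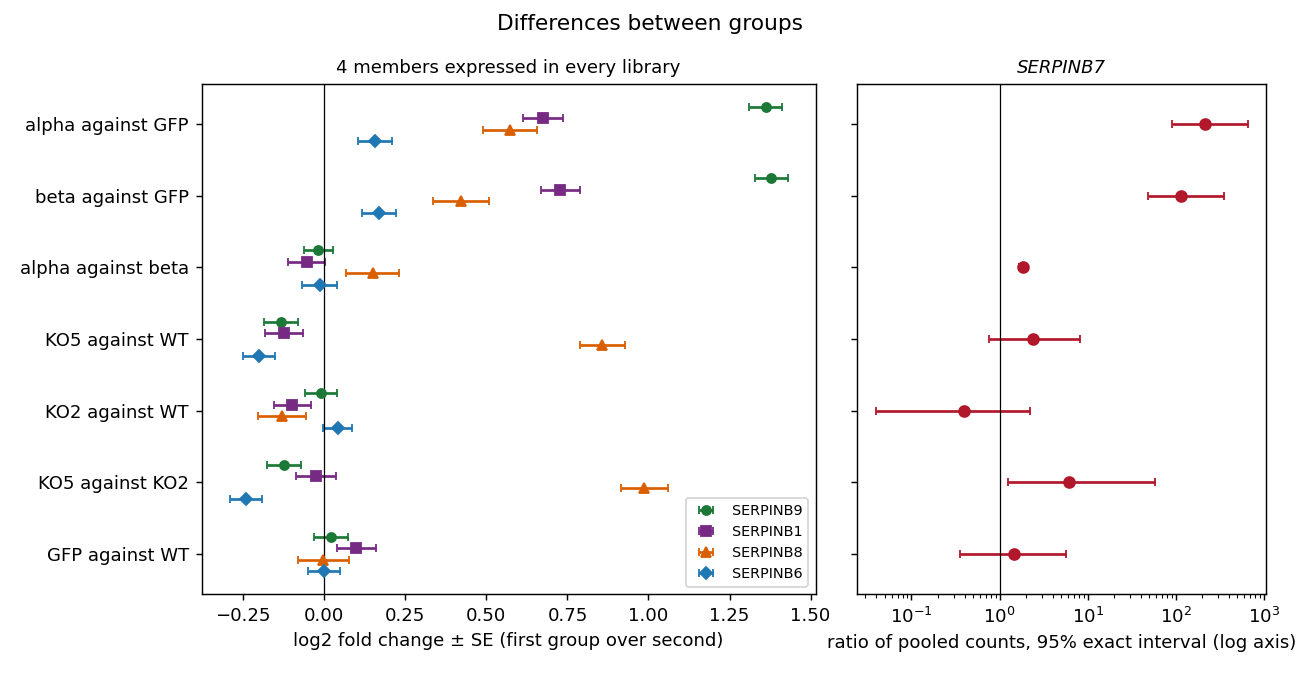
Left, log2 fold change ± SE of SERPINB9, SERPINB1, SERPINB8 and SERPINB6 in 7 comparisons, the first group named over the second. Right, ratio of pooled SERPINB7 counts with 95% exact intervals on a log axis. SERPINB9 lies at 1.36 and 1.38 for alpha and beta against GFP, and SERPINB8 at 0.86 for KO5 against WT.

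In the knockout derivatives, which share the WT libraries as their control, SERPINB8 had the largest change among the members expressed in every library, in KO5. Its level was 23.6 and 23.3 CPM in the KO5 libraries and 11.6 and 12.1 CPM in the KO2 libraries, against 13.4 and 12.6 CPM in WT. SERPINB8 rose in KO5 by 0.86 ± 0.07 over WT (adjusted p = 2.37e-15), whereas KO2 stood at -0.13 ± 0.07 against WT (adjusted p = 0.159, 95% interval -0.27 to 0.01). Tested directly, KO5 exceeded KO2 by 0.99 ± 0.07 (adjusted p = 4.90e-17), and the KO5 libraries lay above every alpha and beta library too. HMSD also rose in KO5 over WT, by 0.55 on the log2 scale (adjusted p = 0.00253).

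Of the other expressed members, SERPINB6 and SERPINB9 fell slightly in KO5. SERPINB6 stood at 38.4 and 42.1 CPM in the KO5 libraries and 46.7 and 48.5 CPM in the KO2 libraries, against 46.3 and 46.2 CPM in WT, and fell by 0.20 in KO5 against WT (adjusted p = 6.34e-04), a call lost without KO5 replicate 1 (-0.14, adjusted p = 0.0658). SERPINB9 averaged 61.2 ± 1.68 CPM in KO5, against 67.3 ± 2.23 CPM in WT (SD, n = 2 each), and fell by 0.13 (edgeR, adjusted p = 0.0333), a call lost when WT replicate 1 or either KO5 library was left out and in DESeq2 (adjusted p = 0.0744). SERPINB1 was at 23.6 and 23.0 CPM in KO5, against 25.0 and 25.7 CPM in WT, a difference of -0.12 ± 0.06 that did not pass (adjusted p = 0.0615). In all, 1 rose and 2 fell of the 4 members expressed in every library in KO5 against WT, where 51.2% of all genes passed (25.2% rose and 25.9% fell). SERPINB7 and SERPINB2 are left out of these counts, as they held few counts or 0 in KO5, KO2, GFP and WT. In KO2 against WT, 0 of these 4 passed in edgeR, 0 in DESeq2 and 0 at an unadjusted p under 0.05, where 30.0% of all genes passed (15.1% higher and 14.9% lower). The same counts of 0 were found for GFP against WT, where 19.0% of all genes passed (8.81% higher and 10.2% lower).

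SERPINB7 in the knockouts rests on few counts. KO5 held 9 counts over both libraries and KO2 held 2, against 6 in WT, giving ratios of 2.41 for KO5 over WT (95% exact interval 0.767 to 8.24) and 0.397 for KO2 over WT (95% exact interval 0.0392 to 2.22). Neither difference passed (adjusted p = 0.168 and 0.403). KO5 over KO2 passed (adjusted p = 0.0248) with a ratio of 6.07 (95% exact interval 1.26 to 57.8), but 8 of the 9 counts came from KO5 replicate 2, and without it the log2 difference of 2.43 became 0.35 (adjusted p = 0.876). It also did not pass without KO2 replicate 1 (adjusted p = 0.115) or without KO2 replicate 2 (adjusted p = 0.0630). Of the members expressed in every library, SERPINB8 was higher in KO5 than in KO2, and SERPINB6 and SERPINB9 were lower. SERPINB9 passed barely (edgeR, adjusted p = 0.0499) and SERPINB1 did not pass. Between KO5 and KO2, 54.9% of all genes passed (26.9% higher and 28.1% lower).

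The authors' deposited tables set overexpression against knockout. Their means of normalized counts were rebuilt to rounding error from the alpha or beta libraries with KO5 and KO2 together. In the authors' deposited table for alpha, SERPINB9 had a log2 fold change of 1.39 ± 0.08 and SERPINB1 of 0.84 ± 0.08, and in that for beta 1.40 ± 0.09 and 0.90 ± 0.08. The fit here gave 1.45 ± 0.04 and 0.89 ± 0.05 with alpha, and 1.47 ± 0.04 and 0.94 ± 0.05 with beta, over the mean of both knockouts. For SERPINB7 the authors' deposited tables give 0.64 ± 0.14 with alpha and 0.65 ± 0.14 with beta, and the fit here gave 8.18 ± 0.58 and 7.30 ± 0.58 on the same log2 scale. Without KO5 replicate 2, which holds 8 of the 11 knockout counts, these became 9.21 and 8.32. The ratio of pooled SERPINB7 counts over both knockouts was 247 with alpha (95% exact interval 138 to 497) and 134 with beta (95% exact interval 74.0 to 270). Whether the deposited fold changes were shrunken towards 0 is not stated and was not tested. SERPINB6 did not pass in the authors' deposited tables (DESeq2 Wald test, adjusted p = 0.199 with alpha and 0.142 with beta). The fit here gave SERPINB6 0.23 ± 0.05 with alpha and 0.25 ± 0.05 with beta (edgeR, adjusted p = 2.66e-05 and 9.77e-06). SERPINB6 averaged 40.2 CPM in KO5 and 47.6 CPM in KO2, a gap that does not enter these errors or adjusted p-values. SERPINB8 did not pass in the authors' deposited tables either (adjusted p = 0.876 with alpha and 0.961 with beta), and KO5 and KO2, pooled there, lie on either side of the alpha and beta levels. Here SERPINB8 with alpha exceeded the mean of the knockouts by 0.21 ± 0.07 (adjusted p = 0.00630), a call lost without alpha replicate 1 (0.17, adjusted p = 0.117), and with beta by 0.06 ± 0.07 (adjusted p = 0.501). Of the 4 members expressed in every library, 4 were higher with alpha than the mean of both knockouts and 3 with beta, and 0 were lower. For SERPINB8 this held against the mean alone, since alpha, at 19.1 CPM, lay between KO2 at 11.8 and KO5 at 23.4 CPM. The gap between KO5 and KO2 does not enter the error of any difference from the mean of both knockouts fitted here. Of all genes, 49.7% passed with alpha (26.6% higher and 23.1% lower) and 52.9% with beta (28.5% higher and 24.4% lower).

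The neighbourhoods were compared next, taking genes that start within 1 Mb of a member. On chromosome 18, 8 genes other than clade B serpins were in the files and 6 were tested, of which 1 rose, 2 fell and 3 did not pass with alpha, and likewise with beta, where 37.5% of all genes passed with alpha and 40.9% with beta. The largest was the fall of HMSD. KDSR, an enzyme of sphingolipid synthesis, rose by 0.29 ± 0.04 with alpha and by 0.39 ± 0.04 with beta, and ZCCHC2 fell by 0.19 with alpha and fell by 0.33 with beta. BCL2, the apoptosis inhibitor gene of this region, did not pass with either form, at 0.02 and 0.10. The 6 clade B genes that lie between VPS4B and SERPINB7 in gene order held 1 count in all, in SERPINB5.

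On chromosome 6, 12 genes other than clade B serpins were tested, the pseudogene SERPINB9P1 among them. Of these, 5 rose and 0 fell with alpha and 7 rose and 1 fell with beta, against the same shares of all genes, 37.5% and 40.9%. RIPK1, a kinase of death receptor signalling, rose by 0.47 ± 0.06 with alpha and by 0.54 ± 0.06 with beta, and the tubulin gene TUBB2A rose by 0.42 ± 0.06 with alpha and 0.35 ± 0.06 with beta. HTATSF1P2 rose by 0.44 ± 0.06 with alpha and 0.54 ± 0.06 with beta, and TUBB2B rose by 0.64 ± 0.17 with beta. SERPINB9P1, a pseudogene of SERPINB9 next to it, had 10 and 16 counts with alpha and 7 and 6 with beta, against 4 and 6 with GFP, and rose with alpha (1.64 ± 0.56, adjusted p = 0.0101). Reads that fit the gene and its pseudogene may have been split between them, so this value is uncertain. Among these tested neighbours, the largest absolute log2 change was 1.31 with alpha and 1.54 with beta on chromosome 18, both of HMSD. On chromosome 6 it was 1.64 with alpha and 0.67 with beta, both of the pseudogene SERPINB9P1, where beta did not pass (edgeR, adjusted p = 0.410).

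**Figure D3:**
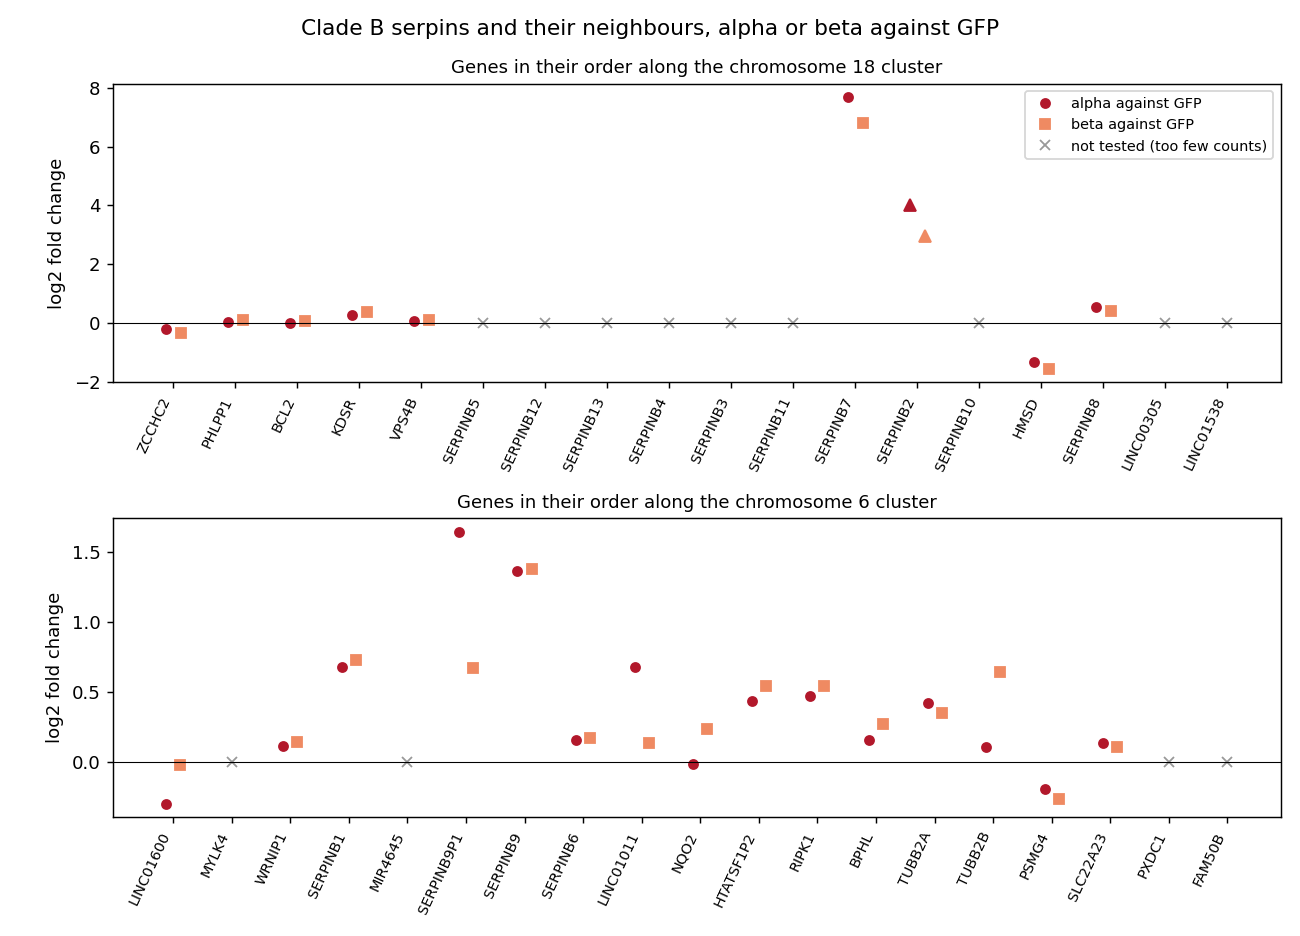
Log2 fold change of clade B serpins and the genes within 1 Mb, in their order along each chromosome, for alpha and beta against GFP. Triangles are lower bounds for SERPINB2, of 16.2-fold and 7.79-fold, and crosses are genes with too few counts to test. SERPINB7 stands at 7.67 and 6.78, with 6 untested clade B genes on its left.

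Beyond the clade, 3 of 22 serpins of other clades were expressed enough to test. SERPINH1, the collagen chaperone HSP47, rose by 0.58 ± 0.03 with alpha (adjusted p = 7.99e-22) and by 0.56 ± 0.03 with beta (adjusted p = 4.73e-21), to 359 ± 0.958 CPM with alpha and 354 ± 4.96 CPM with beta, against 240 ± 2.36 CPM with GFP (SD, n = 2 each). In all, 1 of the 3 rose with alpha and 2 with beta, and 0 fell. Over all tested genes, 37.5% passed with alpha (21.2% rose) and 40.9% with beta (22.9% rose).

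Among 20 proteases and receptors that clade B serpins act on or that belong to the same systems, 10 were tested, of which 3 rose and 3 fell with alpha and 3 rose and 1 fell with beta. Of all genes, 37.5% passed with alpha and 40.9% with beta. PLAUR, the urokinase receptor, rose by 0.92 ± 0.06 with alpha (adjusted p = 2.87e-17), to 45.2 ± 1.03 CPM with alpha, against 23.9 ± 0.648 CPM with GFP (SD, n = 2 each), and by 0.23 ± 0.07 with beta (adjusted p = 0.00476). PLAU, urokinase itself, fell by 0.39 with alpha (adjusted p = 0.00279), to 7.75 ± 0.853 CPM with alpha, against 10.2 ± 0.577 CPM with GFP (SD, n = 2 each). CTSL, a lysosomal cysteine protease, rose by 0.20 ± 0.04 with alpha and 0.31 ± 0.04 with beta, and the related CTSV fell by 0.21 with alpha. CTSH rose by 0.31 ± 0.07 with beta and CASP8, the initiator caspase, fell by 0.30.

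Genes whose log2 CPM followed SERPINB7 most closely over the 12 libraries, among those of at least 1 CPM in their highest group, were LYST, EPG5, FBN2, FERMT2 and MOSPD1, with Pearson r from 0.988 to 0.991. FERMT2, the integrin activator kindlin-2, was likewise near 0 outside the alpha and beta libraries, at 4.71 CPM with alpha and 3.38 CPM with beta, against 0.0375 CPM with GFP. Those closest to SERPINB9 were EHBP1, PRDM1 and FOXD1 (r from 0.993 to 0.995). PRDM1 was the gene overexpressed in the alpha and beta libraries, so its high level there was set by the design. Those closest to SERPINB1 were DCBLD2, HKDC1 and CCDC71L (r from 0.992 to 0.996). For SERPINB2 they were NR2F2, THSD4 and PMAIP1 (r from 0.985 to 0.987). SERPINB8 was followed by ZCCHC3, PPP1R15B and PROS1 (r from 0.963 to 0.975) and SERPINB6 by KIF12, SKOR1 and EMP1 (r from 0.945 to 0.959). The libraries fall into 6 groups of 2, so these values mostly compare group levels. Between members, the r of SERPINB7 was 0.978 with SERPINB9, 0.968 with SERPINB2, 0.963 with SERPINB1 and 0.705 with SERPINB6. It was 0.478 with SERPINB8, whose highest group was KO5. SERPINB7 was listed for its high level with alpha and beta, so its r values mostly restate that difference and are a description without a test.

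Per kilobase of exon, the clade as a whole was about as abundant in GFP, KO5, KO2 and WT libraries and higher with PRDM1. The 8 members summed to 79.9 and 78.2 CPM per kb in the alpha libraries and 78.9 and 73.0 in the beta libraries, against 35.7 and 36.4 CPM per kb in the GFP libraries. The sums were 33.8 and 34.8 CPM per kb in KO5 and 33.5 and 35.3 in KO2, against 35.5 and 34.8 in WT. SERPINB9 made up 54.7% and 52.7% of the sum with alpha and 58.2% and 55.3% with beta, against 45.6% and 46.1% with GFP. SERPINB7 took 10.7% of the mean sum with alpha and 6.01% with beta, against 0.109% with GFP. With alpha SERPINB7 held 8.43 CPM per kb, more than SERPINB6 at 7.17 and SERPINB8 at 3.97 CPM per kb. With beta it held 4.56, between SERPINB6 at 7.24 and SERPINB8 at 3.58 CPM per kb. The divisors are unions of annotated exons, 2.367 kb for SERPINB7, 7.179 kb for SERPINB6 and 4.822 kb for SERPINB8. Which transcripts were expressed was not tested, so these orders and shares depend on the lengths used. In CPM the alpha libraries held 19.6 and 20.4 of SERPINB7, less than SERPINB6 at 50.9 and 52.1. SERPINB8 stood there at 19.6 and 18.7 CPM. The share of SERPINB8 was 14.4% and 13.9% in KO5 and 7.17% and 7.09% in KO2, against 7.82% and 7.48% in WT.

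**Figure D4:**
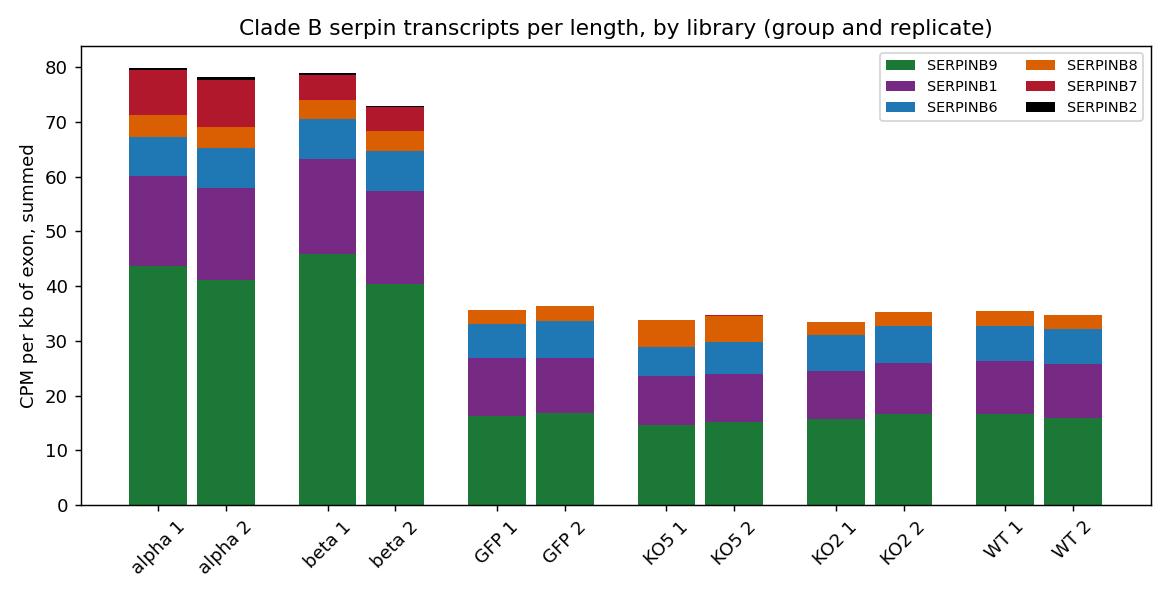
Summed level of the members in each library, in CPM per kb of exon, split by gene. The alpha and beta bars reach 73.0 to 79.9 and the other bars 33.5 to 36.4, and SERPINB7 is visible as a band with alpha and beta.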

How the data were processed

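Polyadenylated RNA of RKO derivatives was sequenced in 12 libraries, grouped by their titles. TopHat, Bowtie2, Cufflinks and the build hg19 are named, per the submitters' processing notes. Roles, versions, the read counter and its use of strand are not given in the sources used here, though the kit was stranded per the labels. The authors deposited whole read counts per gene symbol, without normalization. Of 26366 entries, 2 named no gene and were left out (9.13% to 10.8% of reads without a gene, 1.66% to 1.75% ambiguous). The authors' deposited tables, made with DESeq2, hold log2 fold changes with errors, p-values, a score (the Wald statistic) and the mean of normalized counts as a signal per gene. A further table, equal to the beta one in every value, was left out. The libraries behind each table were identified by computing its mean for 63 combinations of groups.

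Counts were fitted in R 4.3.3 with edgeR 4.0.16 (filterByExpr defaults, TMM, glmQLFit robust, glmQLFTest), with a mean per group over all 12 libraries, 9 comparisons and Benjamini-Hochberg adjustment over 12858 genes at 0.05. Errors of fold changes are Wald errors, using a quasi-likelihood dispersion of at least 1. The fit was tested on simulated data. Log2 CPM used a prior count of 2, and 95% intervals are normal for fits and exact binomial for count ratios. The limit for a count of 0 was 3 counts. Exon lengths are the union over GENCODE v29 basic transcripts (GRCh38), used for lengths only. Replicate libraries differed beyond sampling noise in every group (chi-square per degree of freedom 1.68 to 2.77) and were kept as 2. The common biological coefficient of variation was 2.18%.

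The members, gene lists and tests were chosen with earlier results of these data known. Named besides the members were up to 4 passing genes with the largest absolute change per list or neighbourhood, and the genes most alike in pattern, 5 for SERPINB7 and 3 for the others; BCL2 was named after its values were seen, and some genes of these lists are not reported here by name. Neighbours came from the RefSeq table (GRCh38.p14), matched by symbol and kept where GENCODE places them in the same region, 37 in the files. Other settings tried were a replicate block, each library left out, a fit of the compared groups alone, the Wald test of DESeq2 1.42.0, its size factors within edgeR, all genes without the filter, CPM without TMM and, chosen after seeing the data, WT as the control.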

Additional observations from a re-analysis of the deposited data

Results flagged for a closer look

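The knockout derivatives differed from each other in 4 members when KO5 was tested against KO2 directly, which is the difference of their changes from WT. SERPINB7, with few counts in both, is among these 4. SERPINB8 was higher in KO5 by 0.99 on the log2 scale, with all KO5 libraries above all KO2 libraries. SERPINB6 differed by -0.24 and SERPINB9 by -0.12, each lower in KO5. SERPINB7 was higher in KO5 by 2.43, on 9 counts against 2. Among all tested genes 54.9% differed between KO5 and KO2. SERPINB9 passed barely (adjusted p = 0.0499, edgeR quasi-likelihood test), and its adjusted p ranged up to 0.270 over the alternatives, with 0.0919 in DESeq2. It did not pass without KO2 replicate 2, either KO5 library, either WT library or either GFP library, nor with DESeq2 size factors. SERPINB7 did not pass without KO5 replicate 2, where the difference was 0.35, or without either KO2 library.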

How the results depend on the processing

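The count of called members stayed within 1.5 times its value in 153 of 155 recomputations over 9 comparisons. It includes SERPINB2, which had to differ with alpha and beta, so its calls there are a description without a test. In comparisons without alpha or beta it also includes SERPINB7. With all libraries, 37.5% of all genes passed with alpha and 40.9% with beta against GFP. For KO5 the shares of all genes were 51.2% against WT and 54.9% against KO2. The exceptions were in KO5 against KO2, where leaving out 1 library gave 2 to 4 calls, with 2 calls without KO2 replicate 2 or KO5 replicate 2. Leaving out libraries gave 4 to 5 calls for alpha and for beta against GFP and 2 to 3 for KO5 against WT.

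Deviations of libraries with the same replicate number correlated between -0.0655 and 0.0564 over 15 pairs of groups, so no pairing by number was seen. A weak effect shared by libraries of the same number could go unseen in this check. With the replicate number as a block, the 4 members expressed in every library passed with alpha and with beta against GFP. Under this block 3 members passed in KO5 against WT and 4, SERPINB7 among them, in KO5 against KO2. Without the block, 37.5% of all genes passed with alpha and 40.9% with beta against GFP. In the same fit, 51.2% passed in KO5 against WT and 54.9% in KO5 against KO2. The block turned SERPINB6 in GFP against WT to 0.00013.

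Of 856 recomputed log2 differences of single members, 803 kept direction, side of the threshold and size. Directions turned only for differences that had not passed, and the cause was not tested. In GFP against WT, SERPINB6 was 0.0086 with DESeq2 size factors and 0.0078 in the DESeq2 Wald test, and SERPINB8 was 0.0077 and 0.0043 under these. Leaving out libraries gave SERPINB6 -0.078 to 0.068, SERPINB8 -0.052 to 0.038 and SERPINB9 -0.012 to 0.052 in that comparison. It gave SERPINB6 -0.030 to 0.0049 and SERPINB9 -0.11 to 0.074 in alpha against beta, SERPINB9 -0.050 to 0.032 in KO2 against WT, SERPINB1 -0.065 to 0.011 in KO5 against KO2 and SERPINB7 -0.86 to 2.06 in KO5 against WT, the highest with adjusted p = 0.0204 (edgeR). With WT as the control, chosen after seeing the data, the log2 difference of SERPINB7 was 8.19 with alpha and 7.30 with beta. Depth limits SERPINB7 outside the alpha and beta libraries, SERPINB2, SERPINB5 and SERPINB10, with few counts or 0.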
